A study of Mus musculus with 95 samples.

Results

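Gene expression in the cerebral cortex of mice after 3 months of a torpor-like state (TLS) was compared with that of mice taken before those 3 months (time zero, T0). Torpor is a regulated, reversible lowering of metabolic rate and body temperature by which small mammals save energy, and a torpor-like state is one brought on experimentally. The comparison was chosen by tissue and treatment label, without use of expression values, and takes 16 of the 24 cortex libraries and of the 95 libraries in the series. All mice were C57BL/6J, an inbred laboratory strain, and each group was made of 4 F and 4 M animals by label. The 8 TLS animals, labelled Stim, were 205 days old per the header of the counts table. The 8 control animals, taken at the same 3 months, were also 205 days old, and the 8 T0 animals were 83 days younger. Each library came from its own animal. How TLS was brought on and how the controls were handled are not given in the labels. TLS and 3 months of age therefore cannot be told apart in a comparison of TLS with T0, and the values of TLS against control and of control against T0 are set beside it for that reason. Those comparisons use the same TLS and T0 libraries and are not independent of it. Animals were perfused with buffer before dissection, and polyadenylated RNA of the tissue was sequenced in bulk.

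The cortex is built of excitatory neurons in layers, inhibitory neurons, and glia. Microglia are its resident immune cells, astrocytes take up transmitter and feed neurons, and oligodendrocytes wrap axons in myelin. Neurons that have just been active switch on immediate early genes within minutes. Glia raise interferon-induced and antigen-presenting genes when they meet interferon. With age, glial and immune genes tend to rise in mouse brain. In bulk tissue, a change in the number of cells of a type and a change of RNA per cell cannot be told apart, and a share of all RNA can also change because other RNA does.

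Total counts ran from 15241780 to 22962145 in TLS libraries, from 14299369 to 21974088 in control libraries and from 15028653 to 22573153 in T0 libraries. The tissue label was checked with Slc17a7, the vesicular glutamate transporter of cortical excitatory neurons, which stood at 1168, 1384 and 1504 CPM, counts scaled to the same library total (lowest, median and highest), in TLS libraries and at 1337, 1638 and 1737 CPM in T0 libraries. The sex label was matched in every cortex library (0 mismatches). Several libraries stood apart. TLS animal B4B9 (F) was far above the others in interferon-induced GTPase genes, TLS animal A5DA (M) in neutrophil genes, and TLS animal B03E (F) in markers of the olfactory bulb. Choroid plexus markers, which come from a neighbouring tissue, summed to 13.4 to 1043 CPM in TLS libraries, 122.98 to 1270.5 CPM in control libraries and 7.78 to 669 CPM in T0 libraries, a wide spread in every group. Libraries of TLS and of F T0 animals carry interleaved numbers from 50 to 91, and those of control and M T0 animals carry later numbers from 98 on.

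In TLS cortex most tested genes of microglia, interferon response, antigen presentation, myelin and astrocytes were higher than at T0, and so were 78 of 79 ribosomal protein genes and 57 of 69 nuclear genes of the respiratory chain. Of 32 immediate early genes 21 were lower, and so were 10 of 20 collagens, 18 of 31 ion channels and 12 of 28 synaptic genes. Of 16609 genes tested, 5934 (35.7%) were called at an adjusted p below 0.05 in edgeR's quasi-likelihood test. Of these, 3009 (18.1% of the genes tested) were higher and 2925 (17.6%) were lower in TLS. Of the called genes, 202 of the higher and 193 of the lower genes changed more than 2-fold, and the median log2 fold change over all genes was -0.0036. For 532 genes (3.2%) all 8 TLS libraries lay above all 8 T0 libraries, and for 646 (3.89%) all 8 lay below, 7.09% in all. In the comparisons set beside TLS against T0, 3527 genes (21.2%) were called for control against T0 and 899 (5.41%) for TLS against control. No tested ribosomal protein, respiratory chain or immediate early gene was called for TLS against control. Changes are given below as log2 fold changes ± SE of TLS against T0 (8 libraries each), with p-values adjusted over all genes tested, and levels as the lowest, median and highest CPM of 8 libraries.

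**Figure D1:**
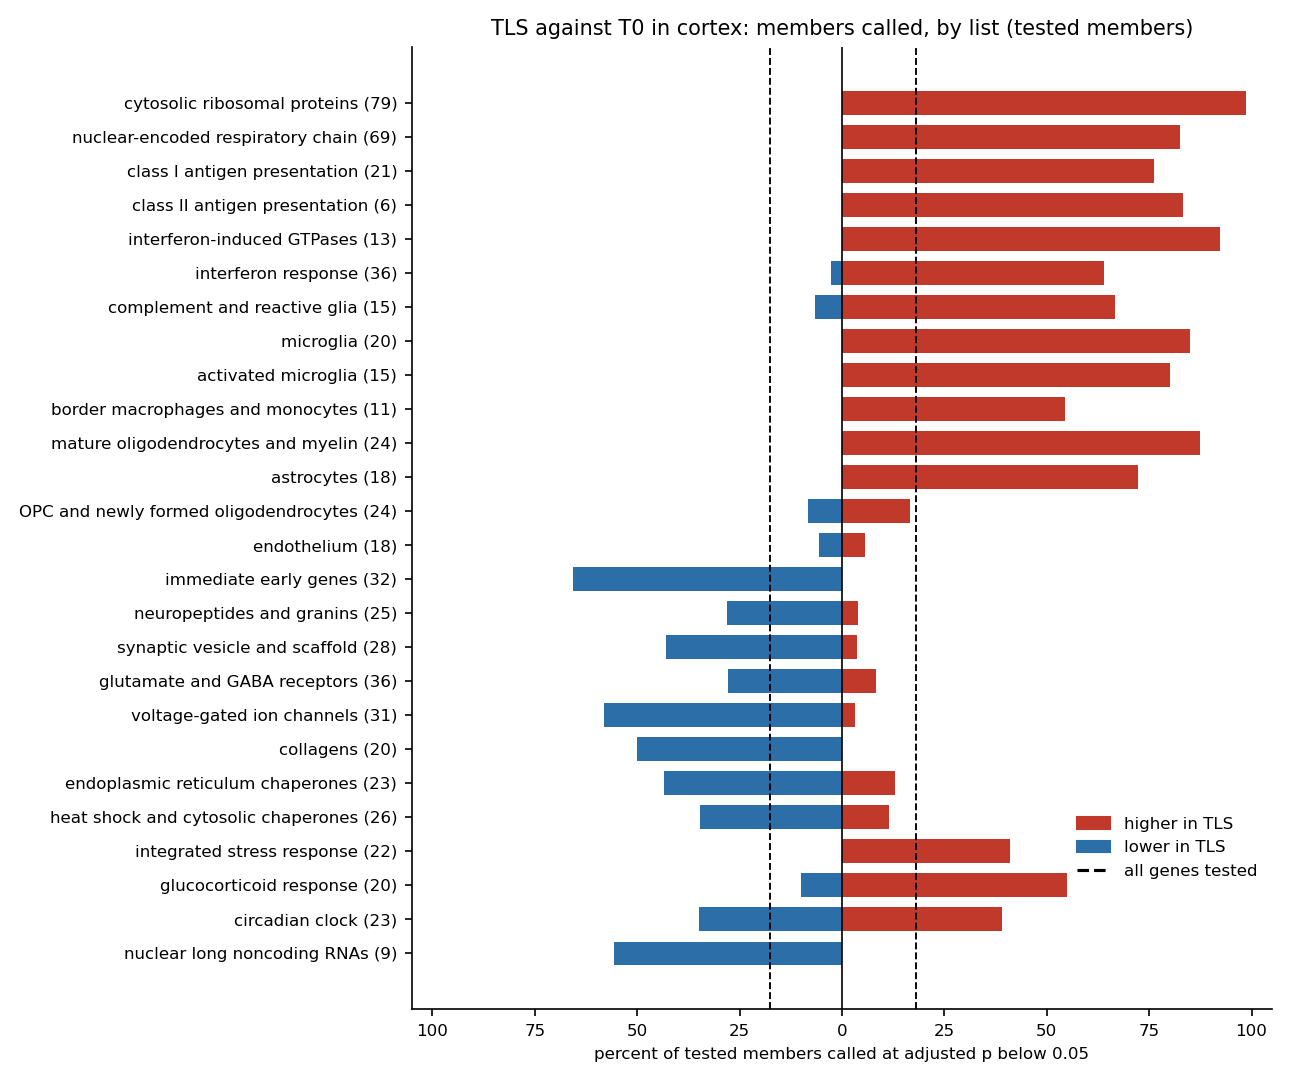
Share of the tested members of 26 gene lists that were called higher (right, red) or lower (left, blue) in TLS against T0 cortex, in percent on the x axis. The dashed lines mark the shares over all genes, 18.1% higher and 17.6% lower, and the number tested stands behind each name. Ribosomal protein, GTPase, myelin and microglia genes reach furthest to the right, and immediate early genes and ion channels furthest to the left.

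Interferons are secreted signals that make cells raise a common set of defence genes, many of them through an element in the promoter called the interferon-stimulated response element (ISRE). Of 36 tested interferon response genes, 23 rose and 1 fell in TLS, with a median log2 fold change of 0.77. Of 13 tested interferon-induced GTPases, which attack membranes around intracellular microbes, 12 rose and the median was 1.58. The ISRE was searched as GAAANNGAAA on both strands, from 250 bases before to 50 after the RefSeq start (GRCm38.p6). It was found in 8 of the 9 risen GTPase genes with a promoter sequence (88.9%) and in 10 of the 16 risen interferon response genes with one (62.5%), against 431 of 12124 tested genes with one (3.56%). Both lists were made of genes that interferon raises, so that high shares on them can follow from the choice of members. The ISRE was also found in 4 of 15 fallen immediate early genes (26.7%) and 3 of 13 risen class I antigen presentation genes (23.1%). Among risen ribosomal protein genes 7 of 57 (12.3%) had it, among risen respiratory chain genes 2 of 48 (4.17%), and no called heat shock or clock gene did. The match is a description of letters and does not show that a factor was bound. The promoters of 4 risen GTPase genes with an ISRE are shown because their genes moved together. They had the largest changes (mean log2 CPM of at least 0) among the genes considered. Genes of a chromosome left out of the printing were not considered, so that a gene with a larger change may be missing. Capitals mark the ISRE, on the printed strand in Tgtp2 and on the other strand in the Gbp genes.
Tgtp2, chr11:49064163-49064462, minus strand: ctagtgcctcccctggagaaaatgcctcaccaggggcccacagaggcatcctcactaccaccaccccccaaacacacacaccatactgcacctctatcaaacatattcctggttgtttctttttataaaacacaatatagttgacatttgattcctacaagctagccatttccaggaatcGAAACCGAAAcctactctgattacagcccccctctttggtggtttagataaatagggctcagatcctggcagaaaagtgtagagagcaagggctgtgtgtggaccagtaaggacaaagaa
Gbp2, chr3:142620413-142620712, plus strand: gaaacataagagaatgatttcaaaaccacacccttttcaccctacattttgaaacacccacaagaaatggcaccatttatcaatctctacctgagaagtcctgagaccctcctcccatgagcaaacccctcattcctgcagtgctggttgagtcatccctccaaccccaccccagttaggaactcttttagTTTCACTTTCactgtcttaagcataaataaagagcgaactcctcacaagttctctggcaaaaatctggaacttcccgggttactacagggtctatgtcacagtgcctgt
Gbp3, chr3:142559794-142560093, plus strand: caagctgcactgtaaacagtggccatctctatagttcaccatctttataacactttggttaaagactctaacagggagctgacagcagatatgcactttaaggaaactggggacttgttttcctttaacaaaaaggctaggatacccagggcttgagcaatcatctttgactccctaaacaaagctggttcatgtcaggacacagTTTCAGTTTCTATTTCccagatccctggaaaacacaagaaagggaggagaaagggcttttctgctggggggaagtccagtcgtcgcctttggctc
Gbp5, chr3:142496684-142496983, plus strand: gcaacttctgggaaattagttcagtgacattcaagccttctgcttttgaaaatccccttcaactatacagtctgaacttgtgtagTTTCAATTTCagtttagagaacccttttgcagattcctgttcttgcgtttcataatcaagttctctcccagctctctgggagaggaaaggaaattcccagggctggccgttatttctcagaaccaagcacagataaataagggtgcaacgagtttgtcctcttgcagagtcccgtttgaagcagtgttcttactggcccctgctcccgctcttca

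The capitals run from base -70 to -61 from the start in Tgtp2, -59 to -50 in Gbp2, -45 to -30 in Gbp3, where 2 matches overlap, and -165 to -156 in Gbp5. Gbp3 stood at 5.28, 9.23 and 44.6 CPM in TLS libraries and at 3.1, 3.89 and 5.75 CPM in T0 libraries, and its log2 fold change was 1.46 ± 0.31 (adjusted p = 0.00085). TLS animal B4B9 was highest and 7 of the 8 TLS libraries lay above all T0 libraries. Gbp2, named like Gbp5 after its values were seen, stood at 3.19, 5.93 and 62.4 CPM in TLS libraries and 1.91, 2.76 and 4.51 CPM in T0 libraries. The TLS median was above the highest T0 library. The second highest TLS library had 7.29 CPM, so that the top of the TLS range rested on animal B4B9. Tgtp2, which has a near-identical neighbour gene and is therefore uncertain, had a log2 fold change of 2.67 ± 0.78 (adjusted p = 0.0106), and 1.42 (adjusted p = 0.0304) without that animal. Irgm2, a GTPase that regulates the others, gave 1.33 ± 0.34 log2 units (adjusted p = 0.00453) with it and 0.71 (adjusted p = 0.00109) without it. Gbp6 rose by 2.11 ± 0.45 log2 units (adjusted p = 0.000608), and all 8 TLS libraries (0.555, 0.82 and 5.48 CPM) lay above all T0 libraries (0, 0.319 and 0.499 CPM). Gbp6 and Tgtp2 reached the level of 0.524 CPM that the filter on low counts asks for in no T0 library, so that they passed only through the groups where they were higher. Without TLS animals A5DA and B4B9 together, 9 of 14 tested GTPases rose (17% of all genes did, and 32.6% changed) and the median was 0.88. Iigp1, which captures vacuoles of parasites, gave 2.01 ± 0.48 log2 units (adjusted p = 0.00264) with all 8 TLS libraries above all T0 libraries, and 1.12 (adjusted p = 0.000854) without B4B9.

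Of the 36 tested interferon response genes, a list apart from the GTPases, 7 had all TLS libraries above all T0 libraries (3.2% of all genes did). Ifit3, one of the tetratricopeptide proteins that bind viral RNA, stood at 9.17, 14.9 and 24.3 CPM in TLS libraries and 5.8, 6.47 and 8.45 CPM in T0 libraries, a log2 fold change of 1.18 ± 0.15 (adjusted p = 3.28e-06). All 8 TLS libraries were above all T0 libraries. Ifit3b (log2 fold change 1.18 ± 0.13, adjusted p = 4.14e-07) also had no overlap, and its sequence is close to that of Ifit3. Ifit1 rose by 1.34 ± 0.21 log2 units (adjusted p = 2.17e-05) and Trim30a, an interferon-induced regulator, by 1.25 ± 0.19 log2 units (adjusted p = 2.13e-05). Ifi27l2a, an interferon-induced membrane protein, rose by 2.76 ± 0.44 log2 units (adjusted p = 2.77e-05), the largest change on the list. Ifi27l2a reached the filter's level in 7 TLS and 0 T0 libraries, and another member that rose, Oas1a, in 6 TLS libraries and 1 T0 library. Against control, 11 of the 36 interferon response genes and 7 of the 13 GTPases were higher in TLS, where 2.99% of all genes were (5.41% differed in either direction). In control against T0, 4 and 0 were higher, where 10.8% of all genes were.

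Class I molecules display peptides from inside the cell to T cells. Of 21 tested class I antigen presentation genes 16 rose and 0 fell, with a median of 0.60. H2-K1, the class I heavy chain at chr17:33996017-34000347 (GRCm38), stood at 29.2, 48.1 and 105.997 CPM in TLS libraries, 21.5, 28.8 and 37.1 CPM in control libraries and 17, 22.2 and 24.8 CPM in T0 libraries. All TLS libraries were above all T0 libraries, with B4B9 highest and the next at 61 CPM. Its log2 fold change was 1.27 ± 0.18 (adjusted p = 2.55e-05). H2-Q7 and H2-Q6, class I genes so alike that reads may be split between them, rose by 3.46 ± 0.38 log2 units (adjusted p = 4.9e-07) and 2.98 ± 0.39 log2 units (adjusted p = 4.15e-06), and neither overlapped between groups. Psme2, a part of the proteasome activator that shapes class I peptides, rose by 0.48 ± 0.078 log2 units (adjusted p = 3.52e-05). Against control, 10 of 21 class I genes were higher in TLS (2.99% of all genes were), and 4 were higher in control against T0 (10.8%).

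Class II molecules present peptides taken up from outside, in brain mainly on microglia and macrophages. Of 6 tested class II genes 5 rose, with a median of 1.51. H2-Aa stood at 1.11, 2.48 and 6.97 CPM in TLS libraries and at 0.272, 0.568 and 0.804 CPM in T0 libraries, without overlap, and its log2 fold change was 2.47 ± 0.31 (adjusted p = 1.96e-06). Cd74, the invariant chain that guides class II molecules, had 2.89, 7.37 and 20.3 CPM in TLS libraries and 1.54, 2.76 and 3.87 CPM in T0 libraries, and rose by 1.59 ± 0.28 log2 units (adjusted p = 0.000151). H2-Ab1 and H2-Eb1 rose by 1.53 ± 0.26 log2 units (adjusted p = 4.55e-05) and 1.49 ± 0.34 log2 units (adjusted p = 0.00121). For control against T0 the log2 fold change of H2-Aa was 1.72 (adjusted p = 0.000508), and for TLS against control it was 0.74 (adjusted p = 0.104). Of the 6 class II genes, 1 was higher in TLS against control (2.99% of all genes were) and 4 in control against T0 (10.8%).

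Microglial identity genes were mostly higher: 17 of 20 tested were higher, 0 lower, and the median log2 fold change was 0.58. Their summed level was 765 to 1241 CPM in TLS libraries and 561 to 654 CPM in T0 libraries, so that the groups did not overlap. Crybb1, a crystallin gene typical of microglia, stood at 8, 11.6 and 14.3 CPM in TLS libraries, 4.16, 5.25 and 7.06 CPM in control libraries and 2.5, 4.34 and 4.9 CPM in T0 libraries. All 8 TLS libraries were above all T0 libraries, and its log2 fold change was 1.46 ± 0.15 (adjusted p = 1.68e-07). P2ry12, the receptor by which microglia sense nucleotides, rose by 0.65 ± 0.092 log2 units (adjusted p = 7.35e-06), and 7 of its TLS libraries lay above all T0 libraries. Tyrobp, the adaptor of many myeloid receptors, rose by 0.97 ± 0.14 log2 units (adjusted p = 7.44e-06). Against control, 11 of 20 microglial genes were higher in TLS (2.99% of all genes were), and 8 were higher in control against T0 (10.8%).

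Genes that mark activated microglia rose in 12 of 15 cases, with a median of 0.40. Against control 3 of the 15 were higher in TLS (2.99% of all genes were), and in control against T0 7 were (10.8%). Lyz2, lysozyme, stood at 9.1, 15.6 and 26.8 CPM in TLS libraries and 3.62, 6.05 and 7.91 CPM in T0 libraries, without overlap, and rose by 1.56 ± 0.20 log2 units (adjusted p = 3.97e-06). Ctss, a lysosomal protease that trims class II chains, rose by 1.10 ± 0.14 log2 units (adjusted p = 5.88e-06). The tetraspanins Cd9 and Cd63 rose by 0.84 ± 0.12 log2 units (adjusted p = 7.98e-06) and 0.59 ± 0.097 log2 units (adjusted p = 4.81e-05). For TLS against control the change was 0.51 (adjusted p = 0.0134) for Cd9 and 0.014 (adjusted p = 0.952) for Cd63, and for control against T0 it was 0.32 (adjusted p = 0.0496) and 0.57 (adjusted p = 0.000304), in the same order. Genes of border macrophages and monocytes rose in 6 of 11 cases, among them Cd84 (1.36 ± 0.15 log2 units, adjusted p = 3.64e-07), the endotoxin receptor Cd14 (1.54 ± 0.25 log2 units, adjusted p = 3.48e-05), Mpeg1 (0.66 ± 0.12 log2 units, adjusted p = 0.000104) and Adgre1 (0.78 ± 0.14 log2 units, adjusted p = 0.000114). Their list summed to 59.4 to 106.3 CPM in TLS libraries and 38.8 to 47.8 CPM in T0 libraries. Against control 4 of these 11 genes were higher in TLS, and in control against T0 2 were.

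Complement is a cascade of proteins that tags targets for uptake, and astrocytes and microglia make several of its parts. On the list of complement and reactive glia, 10 of 15 tested genes rose and 1 fell, and with the share of nuclear RNA described below as a covariate 1 rose. Against control 4 of the 15 were higher in TLS (2.99% of all genes were) and none was lower. In control against T0 4 were higher (10.8% of all genes) and 2 lower (10.5%). C4b, the fourth component, stood at 56.4, 70.5 and 191 CPM in TLS libraries, at 36.6, 42.7 and 50.9 CPM in control libraries and at 13.5, 23.1 and 31.4 CPM in T0 libraries. Every TLS library was above every control and every T0 library, and the log2 fold change was 1.90 ± 0.23 (adjusted p = 4.13e-06). It was 1.07 (adjusted p = 0.0113) for TLS against control and 0.83 (adjusted p = 0.0116) for control against T0. C4a, a near-identical gene beside it, was the member that fell (-1.04 ± 0.21 log2 units, adjusted p = 0.00047), and reads of the pair may be split, so that both values are uncertain. C1qb and C1qc, chains of the first component made by microglia, rose by 0.92 ± 0.17 log2 units (adjusted p = 0.000209) and 0.86 ± 0.14 log2 units (adjusted p = 6.52e-05). Il33, an alarm cytokine of astrocytes and oligodendrocytes, rose by 0.90 ± 0.12 log2 units (adjusted p = 6.18e-06). Gfap, the intermediate filament of reactive astrocytes, stood at 237, 372 and 483 CPM in TLS libraries and 78.2, 226 and 272 CPM in T0 libraries, with 7 TLS libraries above all T0 libraries, and rose by 0.90 ± 0.20 log2 units (adjusted p = 0.00146).

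Genes of blood cells were mostly under the filter on low counts. Of 12 neutrophil genes, 3 passed the filter on low counts and 2 rose. S100a9, a calcium-binding protein of neutrophils, stood at 0.222, 1.11 and 24.8 CPM in TLS libraries and 0, 0.156 and 0.536 CPM in T0 libraries, with animal A5DA highest and the next at 1.56 CPM. Its log2 fold change was 3.91 ± 0.82 (adjusted p = 0.000922) with that animal and 2.25 (adjusted p = 0.0015) without it. S100a9 reached the filter's level (0.524 CPM) in 6 TLS libraries, 3 control libraries and 1 T0 library, so that it passed only through the groups where it was higher, and the count supports no direction. The 12 neutrophil genes summed to 8.54 to 126.5 CPM in TLS libraries and 7.37 to 15.4 CPM in T0 libraries. No neutrophil gene was at 0 in all of these libraries. Of 22 lymphocyte genes, which summed to 53.2 to 96.3 CPM in TLS libraries and 43.4 to 97.8 CPM in T0 libraries, 7 were tested and 1 rose, Igkc, the kappa light chain of antibodies (0.135, 2.02 and 3.85 CPM in TLS libraries, 0, 0.118 and 0.363 CPM in T0 libraries, log2 fold change 3.62 ± 0.72, adjusted p = 0.000442). Igkc reached the filter's level in 5 TLS, 3 control and 0 T0 libraries, so that it too passed only through the groups where it was higher. None of the 6 tested red cell genes was called, and their sums were 223 to 413 CPM in TLS libraries and 228 to 269.6 CPM in T0 libraries.

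**Figure D2:**
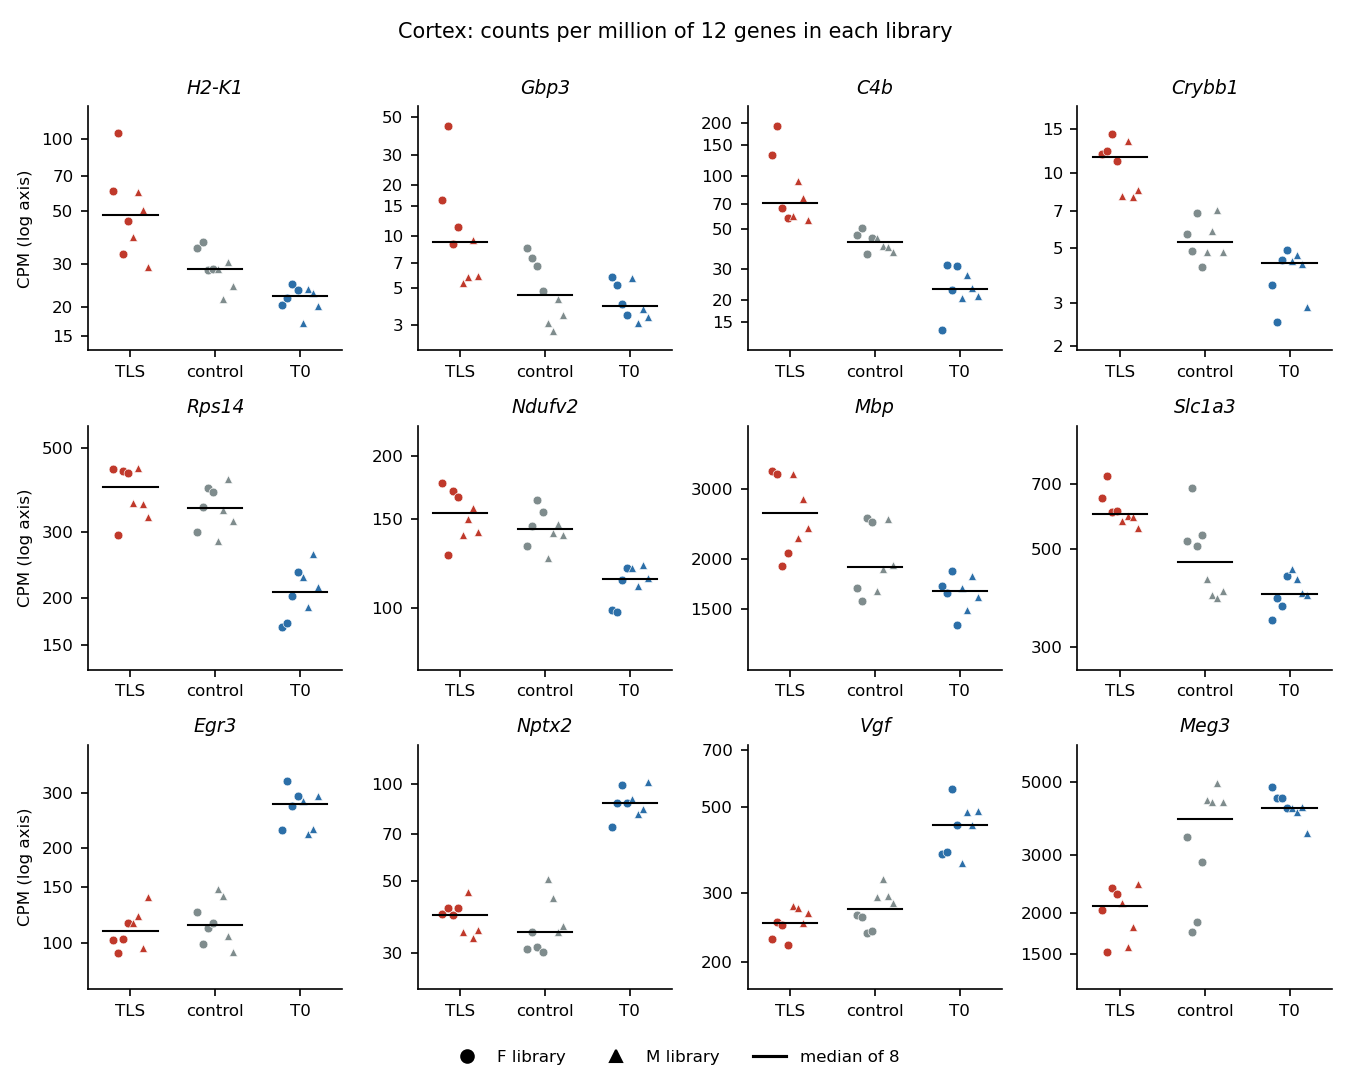
CPM (log axis) of 12 genes in each cortex library of the TLS (red), control (grey) and T0 (blue) groups, with circles for F and triangles for M libraries and a line at the median of 8. For all genes drawn but Gbp3 the TLS and T0 libraries do not overlap. TLS and control libraries overlap in all genes drawn but C4b and Crybb1, and the control libraries of Meg3 lie higher in M than in F animals.

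Myelin genes rose in 21 of 24 cases and none fell, with a median log2 fold change of 0.48. Their sum was 5971 to 11471 CPM in TLS libraries and 4601 to 5732 CPM in T0 libraries. In F libraries alone 4 of 24 rose, in M libraries alone 19, and with the share of nuclear RNA described below as a covariate 1. Markers of thalamus and deep brain moved with myelin in part: as mean log2 deviations, TLS animals B4B9, E46E and DDF3 had the 3 highest myelin scores (0.66, 0.59 and 0.39) and thalamus scores of 1.08, 0.61 and 0.64, and the control animal with the highest myelin score, D215 (0.25), had a thalamus score of 0.98. TLS animals B51B (0.35 and 0.034) and A5DA (0.23 and -0.19) had high myelin scores without high thalamus scores, and the part of the region in the myelin result was not tested. Mbp, myelin basic protein, stood at 1923, 2616 and 3332 CPM in TLS libraries, 1569, 1907 and 2538 CPM in control libraries and 1369, 1666 and 1870.1 CPM in T0 libraries. No TLS library fell as low as the highest T0 library, and the log2 fold change was 0.70 ± 0.13 (adjusted p = 0.000195). Ugt8a, the enzyme that makes the myelin lipid galactosylceramide, rose by 0.88 ± 0.14 log2 units (adjusted p = 5.54e-05), also without overlap. Against control, 8 of 24 myelin genes were higher in TLS (2.99% of all genes were), and in control against T0 3 were (10.8%). The precursor stage moved less: of 24 genes of precursors and newly formed oligodendrocytes 4 rose and 2 fell, shares of the same order as those over all genes. Bcas1 (0.89 ± 0.17 log2 units, adjusted p = 0.000479) and Enpp6 (0.55 ± 0.13 log2 units, adjusted p = 0.00139), genes of newly formed oligodendrocytes, were among those that rose.

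Astrocyte genes rose in 13 of 18 cases and none fell, with a median of 0.34. Against control 5 of the 18 were higher in TLS (2.99% of all genes were), and in control against T0 8 were (10.8%). Slc1a3, a glutamate transporter, stood at 559, 599.9 and 733 CPM in TLS libraries, 386, 468 and 687 CPM in control libraries and 346, 395 and 451 CPM in T0 libraries. All TLS libraries were above all T0 libraries, and the log2 fold change was 0.61 ± 0.083 (adjusted p = 4.75e-06). Acsbg1, an acyl-CoA synthetase of astrocytes, rose by 0.50 ± 0.076 log2 units (adjusted p = 1.71e-05), S100b by 0.56 ± 0.090 log2 units (adjusted p = 3.83e-05) and the glycolytic enzyme Aldoc by 0.52 ± 0.085 log2 units (adjusted p = 4.02e-05). Timp4, an inhibitor of matrix proteases, rose by 0.91 ± 0.11 log2 units (adjusted p = 2.23e-06), and Gabrg1, a GABA receptor subunit, by 0.76 ± 0.12 log2 units (adjusted p = 3.41e-05). Vessel cells gave few calls: 1 of 18 endothelial genes rose (Itm2a) and 1 fell (Tek), and of 20 pericyte, smooth muscle and meningeal genes 1 rose (Slc6a13). The calls of Tek and Slc6a13 were each lost when 1 of several libraries was left out. Without TLS animals A5DA and B4B9, which had the highest endothelial scores, 5 of 18 endothelial genes fell (15.6% of all genes did), with a median of -0.23.

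Ribosomal proteins make up the particle that translates messenger RNA. Of 79 cytosolic ribosomal protein genes 78 rose and none fell, with a median log2 fold change of 0.60. Together they took 1.32% to 2.02% of all counts in TLS libraries, 1.43% to 1.91% in control libraries and 0.886% to 1.39% in T0 libraries, a difference of 0.618 percentage points between the TLS and T0 means (two-sided exact permutation test, p = 0.000311, adjusted p over 21 such tests = 0.00218). Rps14 stood at 295, 394 and 443 CPM in TLS libraries, 284, 347 and 415 CPM in control libraries and 168, 208 and 262 CPM in T0 libraries. No TLS library overlapped a T0 library, and the log2 fold change was 0.89 ± 0.10 (adjusted p = 8.38e-07). Rps18 rose by 0.83 ± 0.10 log2 units (adjusted p = 2.72e-06), Rpl7 by 0.60 ± 0.067 log2 units (adjusted p = 3.64e-07) and Rps3a1 by 0.67 ± 0.088 log2 units (adjusted p = 3.43e-06). The member that was not called, Rps10, named for that reason, had a log2 fold change of -0.24 ± 0.14 (adjusted p = 0.175) at a median of 3.52 CPM in TLS and 3.94 CPM in T0 libraries. For TLS against control none of the 79 was called, with a median of 0.064, and for control against T0 77 were higher, with a median of 0.57. TLS animal B4B9 was the lowest TLS library for Rps14 and Rps18.

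Many ribosomal protein messages begin with a C and a run of pyrimidines, the 5′ terminal oligopyrimidine (TOP) motif through which their translation is regulated. Of 57 ribosomal protein genes with a promoter sequence, 13 (22.8%) had a C followed by at least 4 pyrimidines exactly at the RefSeq start, against 373 of 12124 tested genes (3.08%). The starts of 4 such genes are shown because the whole list moved together. They had the smallest p for TLS against T0, and genes of a chromosome left out of the printing were not considered. Each stretch runs from 10 bases before to 20 after the start, with the run in capitals.
Rps18, chr17:33955646-33955675, minus strand: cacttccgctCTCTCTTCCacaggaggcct
Rps6, chr4:86857348-86857377, minus strand: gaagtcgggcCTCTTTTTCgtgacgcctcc
Rps15a, chr7:118116128-118116157, minus strand: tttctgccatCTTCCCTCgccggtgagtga
Rpl15, chr14:18270967-18270996, minus strand: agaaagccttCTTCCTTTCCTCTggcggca

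Mitochondria make ATP through the respiratory chain, most of whose subunits are encoded in the nucleus. Of 69 such genes 57 rose and none fell, with a median of 0.38, and 58 were higher in control against T0 and 0 in TLS against control. Ndufv2, a subunit of complex I, stood at 127.2, 154 and 177 CPM in TLS libraries, 125.6, 142.96 and 164 CPM in control libraries and 98, 113.9 and 121.7 CPM in T0 libraries. The TLS and T0 libraries did not overlap, and the log2 fold change was 0.45 ± 0.067 (adjusted p = 1.24e-05). Sdhd of complex II rose by 0.51 ± 0.068 log2 units (adjusted p = 3.97e-06), Uqcrc2 of complex III by 0.47 ± 0.067 log2 units (adjusted p = 7.47e-06) and Atp5c1 of the ATP synthase by 0.52 ± 0.075 log2 units (adjusted p = 8.3e-06). Of the 13 genes encoded in mitochondrial DNA 2 rose and 4 fell, with sums of 28777 to 39964 CPM in TLS libraries and 21067 to 42538 CPM in T0 libraries. The 4 that fell were mt-Nd4l (-1.26 ± 0.28 log2 units, adjusted p = 0.0008), mt-Atp6 (-1.19 ± 0.28 log2 units, adjusted p = 0.00188), mt-Co2 (-0.99 ± 0.26 log2 units, adjusted p = 0.00559) and mt-Co3 (-1.01 ± 0.29 log2 units, adjusted p = 0.00997). Their highest library in either group had 19.7 CPM (mt-Co3, T0), far under the sum of the list, and mitochondrial genes have near-identical copies in the nuclear genome, so that their values are uncertain.

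Ribosomal protein and respiratory chain genes are short, and short genes as a class were called higher more often than long ones. In the shortest quintile of genes by summed exon length (47 to 1721 bases) 30.1% were called higher and 8.83% lower, with a median log2 fold change of 0.15. In the longest quintile (5380 bases and over) 10.0% were higher and 24.5% lower, with a median of -0.072. For control against T0 the median was 0.18 in the shortest quintile and -0.10 in the longest. For TLS against control it was -0.028 in the shortest and 0.039 in the longest. The median exon length was 977 bases for ribosomal protein genes and 8234 bases for voltage-gated ion channels. With the trend of counts on length taken out of each library, 5885 of 16311 genes were called (36.1%; 17.9% higher, 18.2% lower), 77 of 79 ribosomal protein genes rose and 1 fell. Respiratory chain genes then rose in 51 of 69 cases with a median of 0.25, and ion channels fell in 16 of 31.

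**Figure D3:**
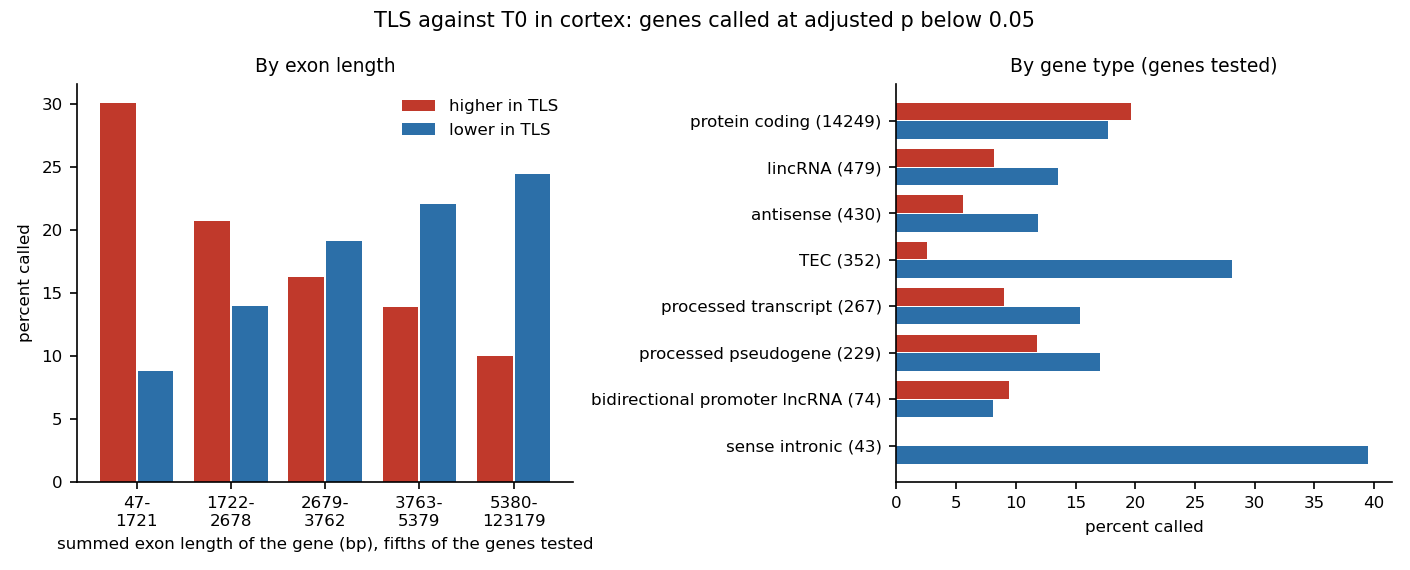
Percent of genes called higher (red) and lower (blue) in TLS against T0 cortex, by quintiles of summed exon length (labelled with the range of each in bp, short to long) on the left and by GENCODE gene type on the right, with the number tested in parentheses. The share called higher is 30.1% in the shortest quintile and 10.0% in the longest, and 28.1% of the 352 genes of the type TEC were lower.

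Immediate early genes, which neurons transcribe within minutes of firing, were lower in TLS. Of 32 tested 21 fell and 0 rose, with a median log2 fold change of -0.62. Egr3, a transcription factor, stood at 92.4, 109.2 and 139.8 CPM in TLS libraries, 93.6, 113.7 and 148.2 CPM in control libraries and 222, 277 and 328 CPM in T0 libraries. Every TLS library was below every T0 library, and the log2 fold change was -1.28 ± 0.10 (adjusted p = 5.61e-09). Nptx2, a secreted pentraxin that gathers glutamate receptors at synapses, stood at 33.4, 39.4 and 46.5 CPM in TLS libraries and 73.7, 87.5 and 101.9 CPM in T0 libraries, again without overlap, and fell with a log2 fold change of -1.18 ± 0.091 (adjusted p = 3.99e-09). Homer1, a scaffold with an activity-induced short form, gave -0.88 ± 0.088 log2 units (adjusted p = 1.32e-07), and Bdnf, a growth factor of synapses, -0.70 ± 0.089 log2 units (adjusted p = 2.39e-06). Fosb and Egr2 gave -1.36 ± 0.24 log2 units (adjusted p = 0.000211) and -1.65 ± 0.43 log2 units (adjusted p = 0.00485), with overlap, and Npas4, a factor induced by calcium entry, -1.06 ± 0.28 log2 units (adjusted p = 0.00576). Fos (-0.88 ± 0.38 log2 units, adjusted p = 0.0772) and Arc (-0.82 ± 0.35 log2 units, adjusted p = 0.0754) did not pass the threshold. Fos stood at 7.55, 24.3 and 34.4 CPM in TLS libraries and 20.2, 36.4 and 95.4 CPM in T0 libraries, and the groups overlapped.

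In control against T0, 16 of the 32 immediate early genes were lower (10.5% of all genes were), and in TLS against control 0 were (2.42% of all genes). Egr3 gave -1.20 (adjusted p = 3.66e-08) for control against T0 and -0.083 (adjusted p = 0.67) for TLS against control, and Nptx2 gave -1.26 (adjusted p = 7.91e-10) and 0.087 (adjusted p = 0.62) in the same order.

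**Figure D4:**
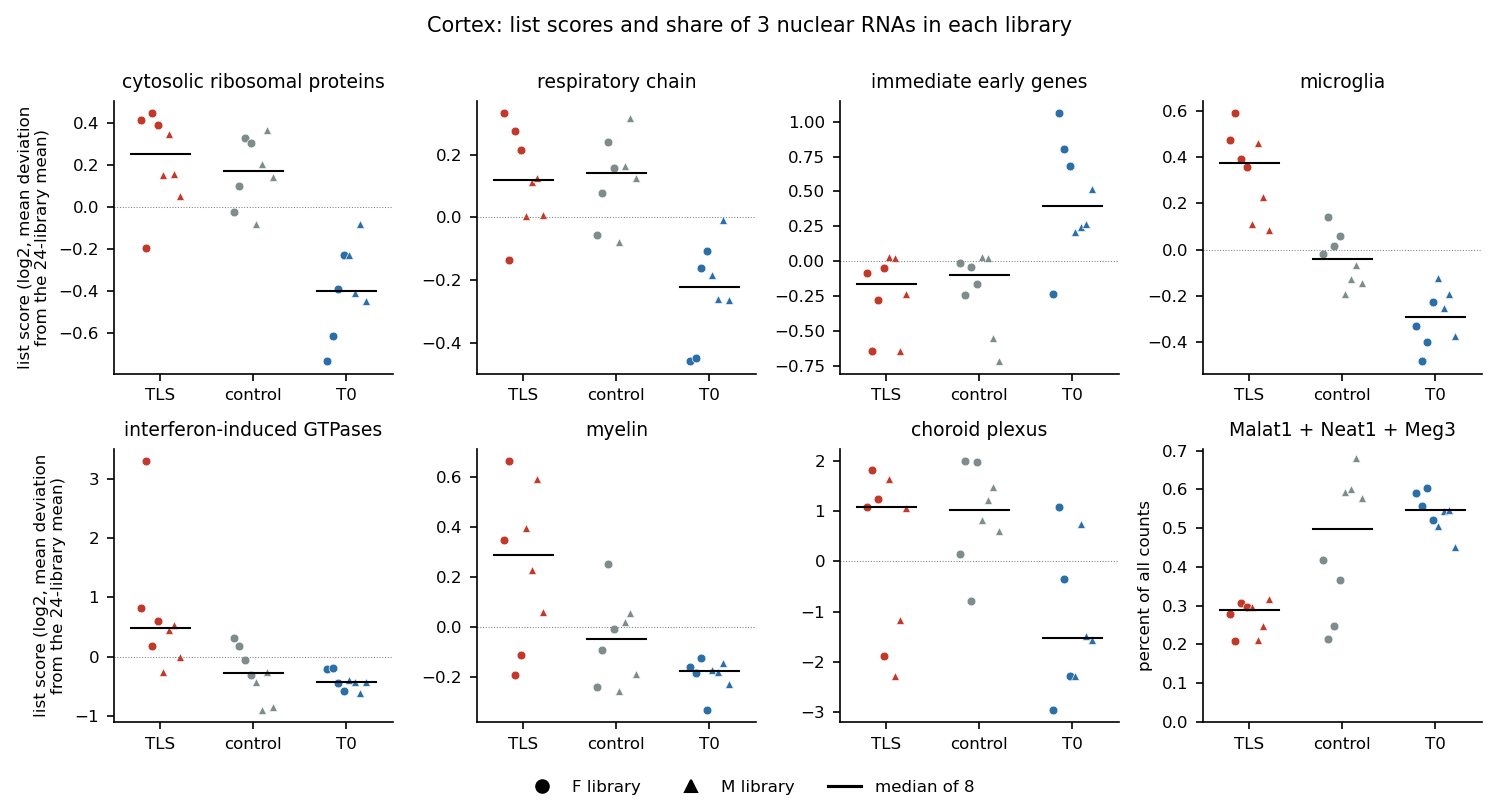
Mean log2 deviation of the members of 7 gene lists from their mean over the 24 cortex libraries, and the percent of counts on Malat1, Neat1 and Meg3, for each TLS (red), control (grey) and T0 (blue) library, with circles for F, triangles for M and a line at the median of 8. Ribosomal protein, respiratory chain and immediate early scores of TLS and control libraries overlap, the GTPase score has 1 library at 3.30, and choroid plexus scores spread over several units in every group.

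Secreted peptides of neurons fell in part. Of 25 neuropeptide and granin genes 7 fell and 1 rose. In control against T0, 9 of them were lower (10.5% of all genes were) and 0 higher. In TLS against control, 0 were lower and 5 higher (2.99% of all genes were higher). Vgf, a granin-like precursor induced by growth factors, stood at 222, 253 and 279 CPM in TLS libraries, 237, 274 and 326 CPM in control libraries and 359, 449 and 554 CPM in T0 libraries, without overlap between TLS and T0, and its log2 fold change was -0.81 ± 0.073 (adjusted p = 2.07e-08). Chgb, a granin of dense vesicles, gave -0.40 ± 0.081 log2 units (adjusted p = 0.000368), and Pcsk1, the convertase that cuts such precursors, -0.54 ± 0.12 log2 units (adjusted p = 0.00133). Crh, corticotropin-releasing hormone, made in cortex by inhibitory neurons, stood at 3.33, 4.91 and 5.57 CPM in TLS libraries, 2.91, 3.2 and 3.82 CPM in control libraries and 6.34, 7.48 and 10.5 CPM in T0 libraries. All TLS libraries were below all T0 libraries (log2 fold change -0.77 ± 0.12, adjusted p = 2.77e-05), and for TLS against control its log2 fold change was 0.45 (adjusted p = 0.036), of the other sign. Trh, thyrotropin-releasing hormone, was among the 12 largest rises, with 0.659, 2.83 and 9.45 CPM in TLS libraries and 0.341, 0.795 and 2.01 CPM in T0 libraries, which overlapped (2.05 ± 0.65 log2 units, adjusted p = 0.018).

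Of 31 voltage-gated ion channel genes 18 fell and 1 rose, with a median of -0.21. Without T0 animal 1, 11 fell, where 15.3% of all genes did, and with the share of nuclear RNA described below as a covariate 1 did (2.29% of all genes). Cacna1g, a T-type calcium channel, stood at 54.4, 74.8 and 86.4 CPM in TLS libraries and 95.3, 101.9 and 116.2 CPM in T0 libraries, without overlap, a log2 fold change of -0.50 ± 0.080 (adjusted p = 2.83e-05). Cacna1a, the P/Q-type channel that triggers release, gave -0.44 ± 0.074 log2 units (adjusted p = 5.09e-05), and Kcnj9 -0.44 ± 0.075 log2 units (adjusted p = 5.75e-05). Of 28 vesicle and scaffold genes 12 fell, Syn1, a coat protein of synaptic vesicles, among them (-0.31 ± 0.061 log2 units, adjusted p = 0.000313), and 1 rose. Of 36 glutamate and GABA receptor genes 10 fell and 3 rose. Gria2, the AMPA receptor subunit that blocks calcium, stood at 468, 490.3 and 534 CPM in TLS libraries and 565, 627 and 742 CPM in T0 libraries, without overlap, and gave -0.37 ± 0.062 log2 units (adjusted p = 4.61e-05), and Grin1, the obligatory NMDA receptor subunit, gave -0.48 ± 0.083 log2 units (adjusted p = 6.2e-05). In control against T0, 15 ion channel, 5 synaptic and 14 receptor genes were lower (10.5% of all genes were). In TLS against control 1, 0 and 1 were (2.42% of all genes). Markers of excitatory neurons by layer showed 5 falls and 2 rises among 26, and those of inhibitory neurons 1 and 2 among 26, shares near or under those over all genes. Slc17a7 itself gave -0.21 ± 0.058 log2 units (adjusted p = 0.00525).

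Collagens form the basement membrane of vessels and the meninges. Of 20 tested 10 fell and none rose, with a median of -0.36. Col5a1 stood at 16.7, 23.9 and 40.6 CPM in TLS libraries, 30.4, 41.5 and 52.6 CPM in control libraries and 48.2, 54 and 77.1 CPM in T0 libraries, and its log2 fold change was -1.16 ± 0.14 (adjusted p = 3.44e-06), with all TLS libraries below all T0 libraries. Of the perineuronal net and matrix list 1 rose, Timp4, and 2 fell among 14. The basement membrane chains Col4a1, Col4a2 and Col15a1 gave -0.73 ± 0.12 log2 units (adjusted p = 5.12e-05), -0.89 ± 0.14 log2 units (adjusted p = 6.67e-05) and -0.90 ± 0.15 log2 units (adjusted p = 4.81e-05). Endothelial markers, with 1 fall in 18 as given above, and 5 without TLS animals A5DA and B4B9 (where 8 collagens fell), had sums of 356 to 766 CPM in TLS libraries and 428 to 621 CPM in T0 libraries. Vegfa, the growth factor of vessels, fell (-0.56 ± 0.097 log2 units, adjusted p = 8.35e-05), on a hypoxia list with 5 rises and 4 falls among 20. In control against T0, 6 collagens were lower (10.5% of all genes were), and in TLS against control 1 was (2.42% of all genes).

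Of 22 genes of the integrated stress response, by which cells adapt to amino acid shortage and misfolded protein, 9 rose and none fell. Against control 4 of the 22 were higher in TLS (2.99% of all genes were) and 1 lower (2.42%). In control against T0 3 were higher (10.8% of all genes) and none was lower. Psat1, an enzyme of serine synthesis, stood at 132.9, 150.1 and 171 CPM in TLS libraries, 108.6, 127.05 and 142.9 CPM in control libraries and 84.1, 94.3 and 110.4 CPM in T0 libraries, without overlap between TLS and T0, and gave 0.64 ± 0.066 log2 units (adjusted p = 1.58e-07). The transcription factor Atf5 gave 0.46 ± 0.069 log2 units (adjusted p = 1.34e-05), Chac1 0.34 ± 0.097 log2 units (adjusted p = 0.00691) and Psph 0.32 ± 0.094 log2 units (adjusted p = 0.00866). Endoplasmic reticulum chaperones fell in 10 and rose in 3 of 23 cases, and cytosolic heat shock genes fell in 9 and rose in 3 of 26. In control against T0, 9 and 10 of them were lower and 2 and 2 higher, in the same order. Over all genes 10.5% were lower and 10.8% higher in that comparison. In TLS against control 0 and 1 were lower (2.42% of all genes were) and none was higher. Dnajb5 and Hsph1 fell without overlap (-0.73 ± 0.077 log2 units, adjusted p = 2.13e-07 and -0.39 ± 0.061 log2 units, adjusted p = 1.98e-05), while Hspe1, a mitochondrial chaperonin, rose (0.52 ± 0.099 log2 units, adjusted p = 0.000206). Hyou1 and Sel1l, of the endoplasmic reticulum, gave -0.37 ± 0.063 log2 units (adjusted p = 5.76e-05) and -0.36 ± 0.066 log2 units (adjusted p = 0.000145), and Dnajb9 0.38 ± 0.060 log2 units (adjusted p = 2.8e-05).

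Glucocorticoids are adrenal stress hormones whose receptor switches genes in all brain cells. Of 20 genes of the glucocorticoid response 11 rose and 2 fell. Against control 3 of the 20 were higher in TLS (2.99% of all genes were) and none was lower. In control against T0 none was higher and 2 were lower (10.5% of all genes). Sgk1, a kinase induced by the receptor, stood at 73.1, 134.7 and 183 CPM in TLS libraries, 42.9, 72 and 88.6 CPM in control libraries and 56.9, 65.7 and 92.7 CPM in T0 libraries, with 6 TLS libraries above all T0 libraries. It gave 0.84 ± 0.18 log2 units (adjusted p = 0.00122), and 0.90 (adjusted p = 0.0103) for TLS against control and -0.062 (adjusted p = 0.848) for control against T0. Tsc22d3, another target, gave 0.46 ± 0.086 log2 units (adjusted p = 0.000176), and Gjb6, a connexin of astrocytes, 0.42 ± 0.085 log2 units (adjusted p = 0.000355). Cdkn1a, the cell cycle inhibitor p21 that is on the p53 list too, fell without overlap (8.94, 13.8 and 18.3 CPM in TLS libraries, 21.4, 28.3 and 33.1 CPM in T0 libraries, -0.93 ± 0.14 log2 units, adjusted p = 2.55e-05). The p53 list had 5 rises and 2 falls among 15 tested, and the list of metallothioneins and zinc transporters 3 and 2 among 9. The metallothioneins Mt1, Mt2 and Mt3, which bind zinc and copper, rose (0.53 ± 0.13 log2 units, adjusted p = 0.00315, 0.56 ± 0.14 log2 units, adjusted p = 0.00336 and 0.57 ± 0.12 log2 units, adjusted p = 0.00061).

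Lists of metabolism other than the respiratory chain were mixed. Glycolysis had 2 rises and 5 falls among 19, with Slc2a3, the glucose transporter of neurons, at -0.34 ± 0.050 log2 units (adjusted p = 1.08e-05) and the enzyme Pfkp at -0.34 ± 0.056 log2 units (adjusted p = 4.35e-05). Cholesterol synthesis had 5 rises and 5 falls among 24, thyroid hormone response 2 and 3 among 18, and lysosome and autophagy 11 and 2 among 30. Npc2, which exports cholesterol from lysosomes, rose (0.57 ± 0.087 log2 units, adjusted p = 1.84e-05). Of 26 cell division genes 4 rose, a share under the 18.1% over all genes. They included Hmgb2 (0.79 ± 0.14 log2 units, adjusted p = 6.68e-05), Pcna (0.32 ± 0.064 log2 units, adjusted p = 0.000314) and Mki67, the proliferation marker. Mki67 stood at 1, 2.21 and 2.67 CPM in TLS libraries and 0.603, 1.05 and 2.1 CPM in T0 libraries (0.86 ± 0.21 log2 units, adjusted p = 0.0021). Replication-dependent histone genes, whose messages mostly lack a poly(A) tail, rose in 4 of 11 cases.

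The circadian clock is a feedback loop of transcription factors, and its genes follow the time of day. Of 23 genes 9 rose and 8 fell. Arntl, the activator BMAL1, stood at 21.8, 22.7 and 29.3 CPM in TLS libraries, 20.2, 23.9 and 27 CPM in control libraries and 30.4, 36.6 and 44.3 CPM in T0 libraries. Every TLS library was below every T0 library, and its log2 fold change was -0.60 ± 0.084 (adjusted p = 6.62e-06). Nr1d1, the repressor of Arntl, fell (-0.31 ± 0.063 log2 units, adjusted p = 0.000367), Cry1 rose (0.50 ± 0.084 log2 units, adjusted p = 5.14e-05) and the output factors Tef and Dbp rose (0.27 ± 0.046 log2 units, adjusted p = 5e-05 and 0.25 ± 0.082 log2 units, adjusted p = 0.0176). Per2 gave -0.060 ± 0.093 log2 units (adjusted p = 0.646). None of the 23 genes was called in TLS against control (5.41% of all genes were). In control against T0 6 were higher (10.8% of all genes) and 5 lower (10.5%).

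Cold induces the RNA-binding proteins Cirbp and Rbm3, and neither was called here. Cirbp stood at 49.2, 63.2 and 72.6 CPM in TLS libraries and 56, 62.6 and 69.3 CPM in T0 libraries, a log2 fold change of -0.021 ± 0.085 (adjusted p = 0.869), and Rbm3 at 41.9, 63.8 and 85.8 CPM in TLS libraries and 56.1, 65.6 and 80.9 CPM in T0 libraries, a log2 fold change of -0.010 ± 0.13 (adjusted p = 0.958). The groups overlapped widely for both. In control libraries Cirbp stood at 56.3, 74.9 and 102.4 CPM and Rbm3 at 64.4, 97.8 and 106.5 CPM. The log2 fold change of Rbm3 was -0.47 (adjusted p = 0.032) for TLS against control and 0.46 (adjusted p = 0.0116) for control against T0, and that of Cirbp was -0.34 (adjusted p = 0.0228) and 0.32 (adjusted p = 0.00959) in the same order. Srsf5 fell, the 1 call on this list of 4 (-0.39 ± 0.086 log2 units, adjusted p = 0.001).

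RNAs that stay in the nucleus were lower in TLS. Of 9 nuclear long noncoding RNAs 5 fell, with a median log2 fold change of -0.96. Against control 3 of the 9 were lower in TLS (2.42% of all genes were), and in control against T0 3 were (10.5%). Meg3 (chromosome 12) stood at 1529, 2099 and 2455 CPM in TLS libraries, 1754, 3862 and 4970.1 CPM in control libraries and 3485, 4171 and 4825 CPM in T0 libraries, and its log2 fold change was -1.06 ± 0.17 (adjusted p = 8.13e-05). Malat1, Miat, Mirg and Snhg11 gave -0.96 ± 0.25 log2 units (adjusted p = 0.00509), -1.20 ± 0.15 log2 units (adjusted p = 5.18e-06), -1.05 ± 0.15 log2 units (adjusted p = 1.93e-05) and -1.04 ± 0.17 log2 units (adjusted p = 6.78e-05), all without overlap between TLS and T0. Neat1 was not called (-0.056 ± 0.11 log2 units, adjusted p = 0.714), and in M libraries alone it was higher (0.25, adjusted p = 0.0346). Genes annotated as sense intronic fell in 17 of 43 cases with none higher, and those of the type TEC, transcripts still to be proven by experiment, fell in 99 of 352 cases and rose in 9.

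The share of counts on Malat1, Neat1 and Meg3 was taken as a measure of nuclear RNA in a library. It was 0.209%, 0.288% and 0.318% in TLS libraries and 0.452%, 0.546% and 0.603% in T0 libraries (lowest, median and highest), a difference in means of -0.270 percentage points (two-sided exact permutation test, p = 0.000155, the smallest that 8 against 8 allows, adjusted p = 0.00163). Within F and within M libraries no TLS library reached a T0 library, and each exact permutation p was 0.0286, the smallest that 4 against 4 allows (adjusted p = 0.0545). Among control libraries the share was 0.214% to 0.417% in F and 0.577% to 0.681% in M animals. Since TLS and T0 libraries do not overlap in this share, it cannot be told apart from the group. Most of the share was Meg3, which was itself called lower in TLS, while Neat1 was not called. Whether the share stands for nuclear RNA as a whole or mainly for Meg3 was not tested. With the share as a covariate, 866 genes were called (5.21%), 485 higher (2.92%) and 381 lower (2.29%). Ribosomal protein genes then rose in 64 of 79 cases, respiratory chain genes in 28 of 69, microglial genes in 7 of 20, interferon response genes in 7 of 36 and GTPases in 0 of 13. Myelin genes rose in 1 of 24, astrocyte genes in 1 of 18, and immediate early genes fell in 8 of 32. Class I antigen presentation genes rose in 4 of 21, activated microglial genes in 2 of 15, complement and reactive glial genes in 1 of 15, ependymal genes in 0 of 10, integrated stress response genes in 2 of 22 and glucocorticoid response genes in 2 of 20. Ion channels fell in 1 of 31, synaptic genes in 3 of 28, receptors in 2 of 36, endoplasmic reticulum chaperones in 1 of 23 and collagens in 2 of 20.

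Of the called genes that the naming rule chose, 72 kept their call under this covariate, 2 turned in sign and all others, more than those that kept it, lost it. Mbp (adjusted p = 0.0507), Slc1a3 (0.114), Gbp3 (0.21), Iigp1 (0.382), Gfap (0.442), Cacna1g (0.0531), Gria2 (0.232), Grin1 (0.224) and Igkc (0.117) were among those that lost it. Egr3 (0.000428), Nptx2 (0.000428), Crybb1 (0.00095), H2-Q7 (0.00128), Psat1 (0.00443), Arntl (0.00502), Rps14 (0.00609), C4b (0.0111) and Col5a1 (0.0189) were still called. The covariate is built from Malat1, Neat1 and Meg3, so their own values under it are not a test.

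Markers of neighbouring regions also differed among libraries. Of 15 choroid plexus genes 2 rose (Aqp1 and Otx2), and each call was lost when any 1 of 12 of the 16 libraries was left out, not the same 12 for both. The median over the list was a log2 fold change of 1.42, and TLS and T0 libraries overlapped in its sum. Ependymal genes rose in 6 of 10 cases (26.4 to 52.6 CPM summed in TLS libraries, 17.1 to 28.2 CPM in T0 libraries), with Rarres2, which codes for a secreted chemokine-like protein, at 0.85 ± 0.15 log2 units (adjusted p = 5.92e-05). Markers of thalamus and deep brain rose in 6 of 13, with Prkcd at 12.1, 28.9 and 129.02 CPM in TLS libraries and 10.7, 12.1 and 30.7 CPM in T0 libraries (1.36 ± 0.48 log2 units, adjusted p = 0.0316), and in 1 of the list without animals A5DA and B4B9 (17% of all genes then rose). Striatal markers ran opposite ways in the sexes, with 5 of 18 lower in M libraries alone (median -0.63; 8.8% of all genes were lower) and none called in F libraries alone (median 1.29), a difference that was called for no member. In all 16 libraries they were called in none of 18, with sums of 733 to 2675 CPM in TLS libraries and 400.4 to 1959 CPM in T0 libraries, and olfactory bulb and neurogenic markers in 1 of 12 (Calb2, 0.99 ± 0.34 log2 units, adjusted p = 0.0292). Hippocampal markers rose in 2 of 15 cases (Calb2 again and Ociad2). With the choroid plexus sum as a covariate 5669 genes were called (34.1%; 17.2% higher, 16.9% lower). The part of the other regions in the results was not tested.

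Several of the 12 largest rises and 12 largest falls lay outside the lists. A2m, a broad protease inhibitor of blood and glia, stood at 2.39, 5.26 and 16.3 CPM in TLS libraries and 0.563, 1.21 and 2.44 CPM in T0 libraries (2.37 ± 0.36 log2 units, adjusted p = 3.2e-05). Fmo2, a flavin monooxygenase, and Ccl9, a chemokine of myeloid cells, rose by 2.01 ± 0.30 log2 units (adjusted p = 1.88e-05) and 1.94 ± 0.27 log2 units (adjusted p = 6.43e-06), and Slitrk6, a neuronal membrane protein, by 2.25 ± 0.67 log2 units (adjusted p = 0.0117). Slitrk6 overlapped between groups and was highest in B4B9. Among the falls, Slc23a3, of the nucleobase and ascorbate transporter family, stood at 0, 0.644 and 0.968 CPM in TLS libraries and 1.14, 2.25 and 3.64 CPM in T0 libraries without overlap (-1.93 ± 0.36 log2 units, adjusted p = 0.000161). Tnfrsf25, a receptor of the tumour necrosis factor family, stood at 1.82, 6.09 and 8.97 CPM in TLS libraries, 5.79, 9.76 and 12.8 CPM in control libraries and 9.42, 20.2 and 23.7 CPM in T0 libraries (-1.65 ± 0.23 log2 units, adjusted p = 1.23e-05). Muc3a, a mucin, gave -1.45 ± 0.24 log2 units (adjusted p = 9.95e-05), Nxf7, of the RNA export factor family, -1.69 ± 0.26 log2 units (adjusted p = 2.37e-05), and Dgat2l6, of an acyltransferase family, -1.48 ± 0.30 log2 units (adjusted p = 0.000414), none with overlap. Plekhg4, an exchange factor for small GTPases, gave -1.35 ± 0.27 log2 units (adjusted p = 0.000367) and Trim71, a regulator of stem cells, -1.25 ± 0.25 log2 units (adjusted p = 0.000285), with overlap. Trim71 also stands on a list of genes that fall as the brain matures, of which 3 rose and 4 fell among 24. Among protocadherins, the adhesion proteins that give neurons their identity, Pcdhgc5 fell (-0.64 ± 0.085 log2 units, adjusted p = 4.04e-06) and Pcdhgc3 rose (0.40 ± 0.097 log2 units, adjusted p = 0.00197), with 5 falls and 1 rise among 23 tested.

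M and F animals were also analysed apart. In M libraries alone 2971 genes were called (17.8%; 8.99% higher, 8.8% lower), and in F libraries alone 4378 (26.2%; 14.1% higher, 12.2% lower). Of the genes tested in both, 1780 were called in both and 1778 of them in the same direction, which is 60.9% of the calls in M and 41.0% of those in F. The difference of the effect between M and F passed the threshold for 0 of 16609 genes (0%) in edgeR and for 0 in limma with quality weights, and 1933 genes had an unadjusted p below 0.05 in edgeR. Without TLS animal B4B9, 9 genes passed, and 1 each without TLS animal B51B and without T0 animal 4. Ribosomal protein genes rose in 73 of 79 cases in M and 77 of 79 in F animals. Microglial genes rose in 13 of 20 in M and 18 of 20 in F animals, and myelin genes in 19 of 24 in M and 4 of 24 in F animals. GTPases rose in 3 of 13 in M and 7 of 14 in F animals, B4B9 being an F animal. The difference itself was called for no member of these lists. The library numbers of TLS and T0 animals do not interleave in M and do in F animals.

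**Figure D5:**
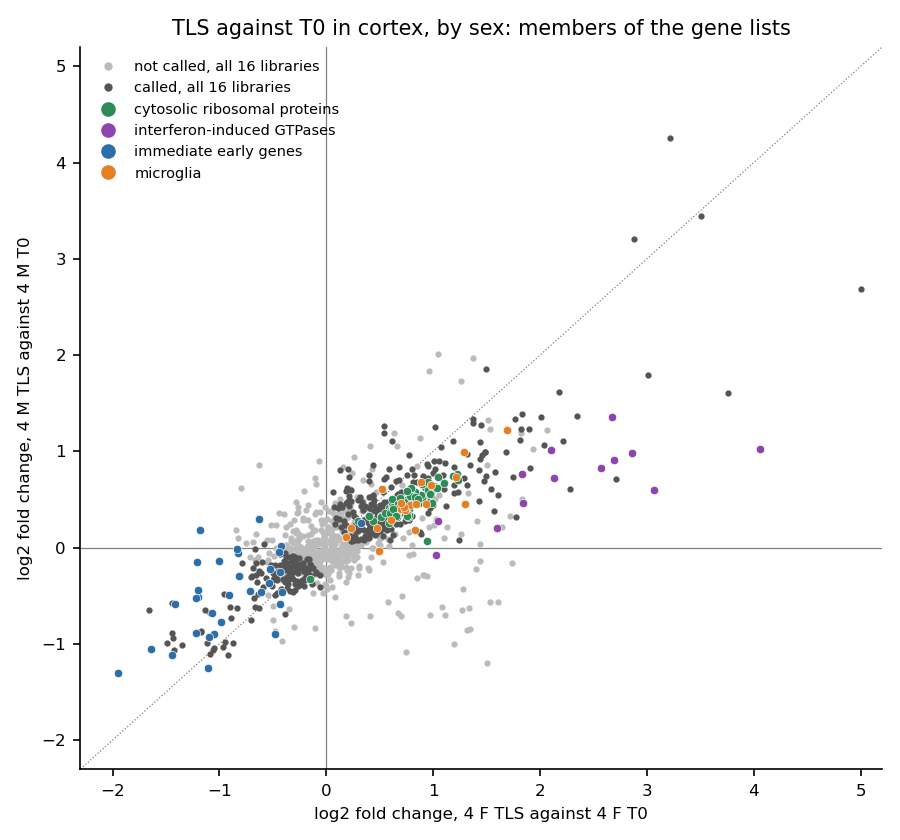
Log2 fold change of TLS against T0 in 4 F against 4 F libraries (x axis) and in 4 M against 4 M libraries (y axis), from the fit with sex crossed with group, for 1032 members of the gene lists. Dark points were called over all 16 libraries, colours mark 4 lists, and the dotted line is equality. GTPase points lie to the right, the rightmost of them Tgtp2 at 1.02 in M and 4.06 in F libraries, and most ribosomal protein points lie below the line.

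The same contrast was available in kidney, liver and white adipose tissue (WAT), under the same animal labels. For 2 of the 8 T0 animals, 4 and 5, the sex label of the kidney library is the opposite of that in the other 3 tissues, and the RNA matched the sex label in all 95 libraries, so that the labels do not tie these 2 kidneys to the animals of the other tissues. Without them TLS against T0 called 0.646% of genes in kidney in place of 0.326%, and the difference between cortex and the other tissues 376 genes in place of 394. In a joint fit of all 95 libraries, TLS against T0 called 68 genes in kidney (0.326% of 20888), 1490 in liver (7.13%; 2.49% lower) and 1255 in WAT (6.01%; 1.45% lower). These counts cannot be set against the 5934 genes called in cortex, which came from a fit of the cortex libraries alone with its own estimate of the spread. The effect in cortex differed from the mean effect of the other 3 tissues for 394 genes (1.89%), 170 more positive and 224 more negative in cortex. In limma, which weights each value by its precision, 2838 genes passed with the animal as a block and 2730 without it. No ribosomal protein or respiratory chain gene was called for TLS against T0 in kidney, liver or WAT in the joint fit. Without the 2 kidneys, 5 of 79 ribosomal protein genes rose in kidney, where 0.436% of all genes did. The median log2 fold change of ribosomal protein genes was 0.44 in kidney (0.77 without the 2 kidneys), 0.22 in liver and 0.21 in WAT, against 0.60 in the cortex fit. For respiratory chain genes it was 0.071 (0.30 without the 2 kidneys), 0.016 and 0.059, against 0.38. In the test of the difference none of the 79 ribosomal protein genes and 1 of 69 respiratory chain genes was called. Of 32 immediate early genes 5 had a more negative effect in cortex (1.07% of all genes did), and of 20 microglial genes 2 had a more positive one (0.814% of all genes). Zc3hav1, an antiviral zinc finger protein, had a log2 fold change of 1.04 in cortex, against 0.23 (kidney), -0.31 (liver) and 0.035 (WAT), and the difference was 1.06 (adjusted p = 2.5e-05). Gstt3, a glutathione transferase, had 1.59 in cortex, against -0.069 (kidney), -0.43 (liver) and -0.68 (WAT), and the difference was 1.99 (adjusted p = 4.32e-05). Dnajb5, the chaperone named above, had -0.72 in cortex, against 0.22 (kidney), 0.36 (liver) and -0.23 (WAT), and the difference was -0.84 (adjusted p = 0.000144). The difference was called for none of 15 interferon-induced GTPases, of which 7 rose in kidney (0.244% of all genes did), 3 in liver (4.64%) and 6 in WAT (4.56%).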

How the data were processed

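RNA of cerebral cortex, kidney, liver and white adipose tissue was measured in 95 libraries, 24 of them from cortex. The values are whole-number gene counts that the authors deposited. Per the file headers they were made with featureCounts and are named as corrected, which is not explained further. Per the submitters' processing notes, STAR 2.7.10, the mm10 (GRCm38) build, DESeq and DESeq2 were used. The gene annotation and the strand setting are not given in the sources used here, so antisense and overlapping genes are uncertain. Libraries were made from poly(A) RNA with NEBNext Ultra II and sequenced on an Illumina instrument, per the labels' protocols. All samples carry the same batch label.

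Groups, sex and animals were taken from the labels. All 24 cortex libraries entered 1 fit with edgeR 4.0.16 in R 4.3.3: TMM scaling, filterByExpr with a minimum count of 10, robust quasi-likelihood, sex as a covariate, and Benjamini-Hochberg adjustment over 16609 genes with a threshold of 0.05. The tissue difference came from 1 fit of all 95 libraries. Deposited counts per library total 14299369 to 22962145 in cortex. The fit was tested on simulated data before use. The 56 pairs of libraries within a group were compared, and none was identical or agreed within sampling noise. The alternatives used DESeq2 1.42.0, limma 3.58.1, other scaling, filters and covariates, and left out each library in turn.

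The members, gene lists and tests were chosen with earlier results of these data known. The rule for named genes took up to 4 called members of each list by smallest p, the 12 called genes that rose most and the 12 that fell most (genes under a mean of 0 log2 CPM left out), the 4 smallest p each way for the tissue difference, and a few that were always looked up. Gbp2, Gbp5, C4a, Rps10, Rps6, Rps15a and Rpl15 were named outside it, after their values were seen. A few genes that the rule named are not reported here. The ISRE and TOP motifs were searched in RefSeq promoters, of which 12124 matched tested genes by symbol, and the TOP search was added after seeing the data. The animal labels pair the tissues of 1 animal, except that the kidney libraries of T0 animals 4 and 5 carry the opposite sex label.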

Additional observations from a re-analysis of the deposited data

Results flagged for a closer look

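Among 184 groups of 8 libraries tested for a library far from the others (list scores and named genes), chance flags about 1 in 20. Many of the flags below can therefore be due to chance. In TLS libraries the score of interferon-induced GTPases was 3.30 in B4B9, with the next at 0.814, and log2 CPM of the GTPase gene Iigp1 was 4.84 in B4B9, with the next at 1.96. The neutrophil score was 2.80 in A5DA, with the next at 0.575, and log2 CPM of S100a9 was 4.64 in A5DA, with the next at 0.73. A5DA was also lowest for Tnfrsf25, at 0.95 log2 CPM, with the next at 2.22. The olfactory bulb score was 1.05 in B03E, with the next at 0.225, and the score of cold-inducible genes was -0.395 in B23B, with the next at -0.165. In T0 libraries, animal 1 was lowest in the scores of activated microglia (-0.613), ependyma (-1.29) and glucocorticoid response (-0.462) and in Gfap (6.29 log2 CPM, with the next at 7.33). The clock score was highest in T0 animal 5, at 0.142. A score is the mean log2 deviation of a list's genes from their mean over the 24 cortex libraries.

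Of the 394 genes for which edgeR's test called a difference between the effect of TLS against T0 in cortex and the mean effect in the other 3 tissues, the 4 with the smallest p each way (mean of at least 0 log2 CPM) are given here. The effect was more positive in cortex for Zc3hav1 (1.06, adjusted p = 2.5e-05), Gstt3 (1.99, adjusted p = 4.32e-05), the carboxypeptidase gene Cpq (0.93, adjusted p = 9.09e-05) and Klhdc7a (1.24, adjusted p = 0.000172). It was more negative for Dnajb5 (-0.84, adjusted p = 0.000144), Slc23a3 (-2.51, adjusted p = 0.000187) and Cdk9, the kinase of transcription elongation (-0.63, adjusted p = 0.000238). For Lrtm2 the difference was -3.11 (adjusted p = 1.68e-06) with no call in cortex itself, where its log2 fold change was -0.0038 in the joint fit, against 0.45 (kidney), 8.92 (liver) and -0.039 (WAT). Values are in log2 units.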

How the results depend on the processing

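The count of called genes stayed within 1.5 times of 5934 under other scaling, filters, DESeq2, limma, no sex covariate, TLS and T0 libraries only, and F libraries alone, and ran from 5314 to 6024 when 1 library was left out. M libraries alone gave 2971 (1501 higher, 1470 lower), and the nuclear RNA share as covariate gave 866 (485 higher, 381 lower). The M and F difference gave 0 genes, and 0 to 9 with 1 library left out. For the tissue difference, 394 genes became 48 with kidney alone in place of the mean, 1061 with liver alone, 2838 in limma with the animal as a replicate block and 2730 in limma without it, so that the block itself moved the count little. Without the 2 kidney T0 libraries whose sex label differs from that of the same animal label in other tissues, that block gave 2909. No label pairs a TLS animal with a T0 animal. Library numbers run in sets of 12, 4 of which hold 1 F TLS and 1 F T0 cortex library, though the labels give a set no meaning. Those 8 F libraries gave 3697 genes (1983 higher, 1714 lower), and 3424 (1898 higher, 1526 lower) with the set as a replicate block. Deviations from the group means correlated at -0.12 to 0.15 within a set and -0.21 to 0.26 between sets. With only 4 pairs within sets, these values cannot decide whether the numbers pair the libraries.

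Signs turned for few genes, and of these Pcdhgc3 and Malat1 had been called: Pcdhgc3 -0.00039 and Malat1 0.29 with the nuclear RNA share as covariate. The share is built from Malat1, Neat1 and Meg3, so their values under it are no test. With that covariate Neat1 was 0.21, Cirbp 0.16 and Rbm3 0.14, and in M libraries alone Tac1 was -0.14, Neat1 0.25 (adjusted p = 0.0346 in edgeR, called higher), Cirbp 0.045 and Rbm3 0.085. Neat1 was 0.021 in limma, Rbm3 0.00091 without a filter, and without A5DA and B4B9 Rbm3 was 0.076 and Per2 0.0073. Lrtm2 was 0.11 in F libraries alone and in the 8 F libraries with and without the block, 0.0057 with the choroid plexus sum, 0.0087 with the length trend removed and 0.00017 without a filter, and its tissue difference was 0.036 with WAT alone. With 1 library left out, values ran from -0.054 to 0.018 for Lrtm2, -0.048 to 0.023 for Cirbp, -0.075 to 0.057 for Rbm3, -0.11 to 0.015 for Per2 and -0.095 to 0.025 for Neat1. The cause was not tested. Settings with the length trend removed, the choroid plexus sum, A5DA and B4B9 left out, the 8 F libraries, or the 2 kidney libraries left out were chosen after seeing the data. Genes under the filter on low counts, among them 9 of 12 neutrophil and 15 of 22 lymphocyte genes, were not tested at this depth.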
